A study of Mus musculus and other sequences with 2 samples.

Results

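The miR-23/27/24 clusters are a pair of small groups of neighbouring miRNA genes, and their mature sequences were examined here in the culture media of murine blastocysts. Members were taken by name as every mouse assay of the array numbered 23a, 23b, 24, 27a or 27b for the major arm of the hairpin. The rule found 5 assays (mmu-miR-23a, mmu-miR-23b, mmu-miR-24, mmu-miR-27a and mmu-miR-27b, written below without the prefix for mouse) of the 750 miRNA assays on the 2 array cards, and all 5 were on card A. Zygotes came from superovulated CD1 females (aged 3 weeks in the labels, a wider range in the methods) mated with CD1 males. They were cultured to 99 h post-hCG, and 25 embryos, which the labels call blastocysts and the methods describe as compacted or cavitating morulae, were then moved to an 8 μL microdroplet of BSA-free KSOM until 116 h post-hCG, at 5% O2 and 5% CO2. The blank microdroplet held the same media without embryos for the same 17 h. From each microdroplet 6 μL was lysed without RNA extraction, reverse transcribed, pre-amplified for 12 cycles and run on a TaqMan rodent miRNA array. Each condition was represented by 1 sample and each miRNA assay by 1 well, so that no test between the media was possible and every difference given for these miRNAs is a difference between single wells. Both conditioned and blank media were free of added BSA, and the number of embryos that release a sequence cannot be told apart from the amount released by each.

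Each cluster is transcribed as a single primary RNA, from which the enzymes Drosha and Dicer cut 1 hairpin and then 1 mature duplex for each gene. The mature strands guide Argonaute proteins to mRNAs through the seed, the bases from position 2 to position 8. The miR-23, miR-27 and miR-24 sequences are found in most tissues, are abundant in endothelial, muscle and blood lineages, and are present in cell-free body fluids. Among their known targets are glutaminase for miR-23, the adipogenic receptor PPARγ for miR-27, and the histone variant H2AX and regulators of the cell cycle for miR-24.

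The mature sequences of the members are shown because they give the members' grouping by seed, and because miR-24 is encoded in both clusters. Sequences for 4 of the 5 were taken from RefSeq on the mouse assembly GRCm38.p6, and miR-23b is named only. They are printed 5′ to 3′ with the seed in capitals.
miR-23a: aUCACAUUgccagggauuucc
miR-24: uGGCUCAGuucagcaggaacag
miR-27a: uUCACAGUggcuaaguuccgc
miR-27b: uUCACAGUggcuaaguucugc
The sequence of miR-23a lies at chr8:84208563-84208583, that of miR-27a at chr8:84208727-84208747 and that of miR-27b at chr13:63300760-63300780, all on the plus strand. The sequence of miR-24 is encoded at chr8:84208875-84208896 in Mir24-2 and at chr13:63301251-63301272 in Mir24-1, also on the plus strand. The hairpins of Mir23a, Mir27a and Mir24-2 span 404 bp on chromosome 8. Those of Mir23b, Mir27b and Mir24-1 span 792 bp on chromosome 13, within the bounds of the protein-coding gene Aopep. Mature miR-27a and miR-27b are identical at 20 of 21 positions, and the substitution from miR-27a to miR-27b is C19U, counted from the 5′ end, so that they share a seed. The seed of miR-23a matches that of miR-27 at 6 of 7 positions, with U7G from miR-23a to miR-27. The seed of miR-24 is unrelated to these. The assay of miR-24 reads a sequence that both clusters encode, whereas miR-23a and miR-27a belong to the chromosome 8 cluster and miR-23b and miR-27b to the chromosome 13 cluster.

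No member of the clusters was exclusive to conditioned media at a Ct limit of 35, with Ct taken alone. Signals are given as Ct, the cycle number at which fluorescence in a well passes a set threshold; 1 cycle less stands for about a doubling of template, so that an early Ct stands for a strong signal within 1 assay. With a Ct below 35 taken as detection, miR-24, miR-27a and miR-27b were detected in both media, miR-23b was detected in blank media only, and miR-23a was undetermined in both. Detection in conditioned media was thus found for 3 of the 5 members, against 37.3% of all 750 miRNA assays. Detection in blank media was found for 4 of the 5 members, against 29.1% of all assays. The 3 members detected in both media compare with 23.5% of all assays, the 1 detected in blank media only with 5.6%, the 0 detected in conditioned media only with 13.9%, and the 1 detected in neither with 57.1%. Among the 374 miRNA assays of card A alone, the shares were 39.8% for conditioned media, 32.6% for blank media, 25.1% for both, 7.49% for blank media only, 14.7% for conditioned media only and 52.7% for neither. The methods also filter on the height of the fluorescence signal, which was not analysed here, and which could remove calls in either sample and so change which sequences count as exclusive. With 5 members, of which the miR-27 pair are near-identical, the counts describe these wells and were not tested against the background.

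**Figure D1:**
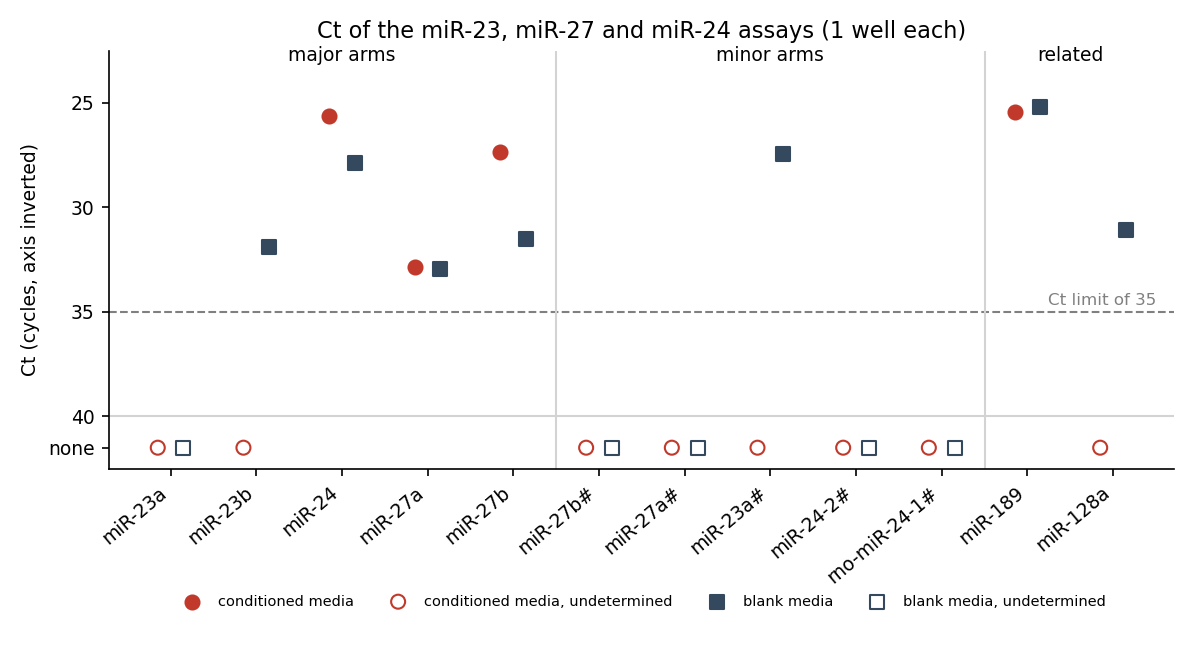
Ct in conditioned media (red circles) and blank media (dark squares) for the 5 major arms, 5 minor arms and 2 related assays, 1 well per point, on an inverted axis in cycles on which open symbols mark undetermined wells. Of the major arms, miR-24, miR-27a and miR-27b had a Ct in both media, miR-23b had one in blank media only, and miR-23a had none.

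Among the major arms of the clusters, the earliest signal in both media was that of miR-24. Its Ct was 25.6 with embryos and 27.9 without. The difference, conditioned minus blank, was -2.22 cycles, which corresponds to 4.66 times as much template in conditioned media if each cycle doubles the product. Relative to U6, described below, the difference had the opposite direction, 1.86 cycles with the mean of its wells. In conditioned media, 141 of the 280 detected sequences had an earlier Ct than miR-24, which lay close to the middle, and in blank media 152 of 218 did. These counts rest on Ct alone and include very early wells, down to 4.46 with embryos and 4.37 without. Over all detected sequences, the median was 25.5 with embryos and 22.8 without. Of the 176 sequences detected in both media, 47 had a difference as low as or lower than that of miR-24.

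The miR-27 pair, though nearly identical in sequence, had unlike Ct values in conditioned media. The Ct of miR-27b was 27.4 with embryos and 31.5 without. Its difference of -4.15 cycles was the lowest of the clusters and corresponds to 17.8 times as much template in conditioned media on the same assumption, but relative to the mean of U6 it was -0.071 cycles, and relative to its median 0.94. The Ct of miR-27a was 32.8 with embryos and 32.96 without, a difference of -0.13 cycles that became 3.95 relative to the mean of U6 and 4.97 relative to its median. In conditioned media, 176 of the 280 detected sequences had an earlier Ct than miR-27b and 257 an earlier one than miR-27a, and in blank media 190 and 202 of 218 did, so that both sequences were later than the middle in both media. Of the 176 sequences detected in both media, 26 had a difference as low as or lower than that of miR-27b, and 81 as low as or lower than that of miR-27a. In conditioned media the pair were 5.46 cycles apart. How far each assay also reads the other sequence, from which it differs at 1 base, was not tested.

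The miR-23 pair gave no signal in conditioned media. The Ct of miR-23b was 31.9 in the blank well, and its well of conditioned media was undetermined. The assay of miR-23a was undetermined in both. The blank well of miR-23b was not among the early signals of that sample, since 194 of the 218 sequences detected there had an earlier Ct. If the undetermined well were set to 40, the last cycle run, the Ct of miR-23b would be 8.12 cycles later in conditioned media than in blank media. That value rests on 1 well with a Ct and 1 without.

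Error between wells of the same card was available from U6 alone, the small nuclear RNA that the array carries in 4 wells of each card. On card A, its mean Ct was 20.9 ± 0.68 (SD, n = 4 wells) in conditioned media and 24.98 ± 3.22 (SD, n = 4 wells) in blank media. In blank media 1 U6 well had a Ct of 20.2 and the other 3 lay between 26.3 and 27.1, and without it the SD was 0.49. In conditioned media 1 well had a Ct of 19.9 and the other 3 lay between 21.1 and 21.3, with an SD of 0.09. On card B, which held no member, U6 was 19.96 ± 0.83 (SD, n = 4 wells) in conditioned media and 27.04 ± 0.23 (SD, n = 4 wells) in blank media, 7.07 cycles earlier with embryos, and no blank well was below 26.8. The wells of a card share the lysate and the pooled pre-amplification product of 1 sample, and describe neither embryos nor cultures.

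Set against these spreads, the difference of miR-24 was smaller than the SD of the U6 difference between the media, 3.29 cycles with all wells, and larger than the 0.50 cycles found without the outlying well of each sample. Leaving out the farthest wells lowers an SD by construction. The difference of miR-27b was larger than either SD, and that of miR-27a was smaller than either. The order of Ct in conditioned media was miR-24, miR-27b and miR-27a, with gaps of 1.73 and 5.46 cycles, both larger than the SD of a gap between 2 U6 wells there, 0.96 cycles. In blank media the order was miR-24, miR-27b, miR-23b and miR-27a. There the SD of a gap between 2 U6 wells was 4.55 cycles, and 0.69 without the outlying well. The gap of 0.36 cycles between miR-27b and miR-23b was smaller than either, and those of 3.66 cycles between miR-24 and miR-27b and of 1.08 cycles between miR-23b and miR-27a were larger only without the outlying well. In both media every U6 well of card A had an earlier Ct than any member, and the error between wells at the later Ct of the members was not measured. Assays amplify with unequal efficiency, and this order is therefore one of signals and not of amounts.

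**Figure D2:**
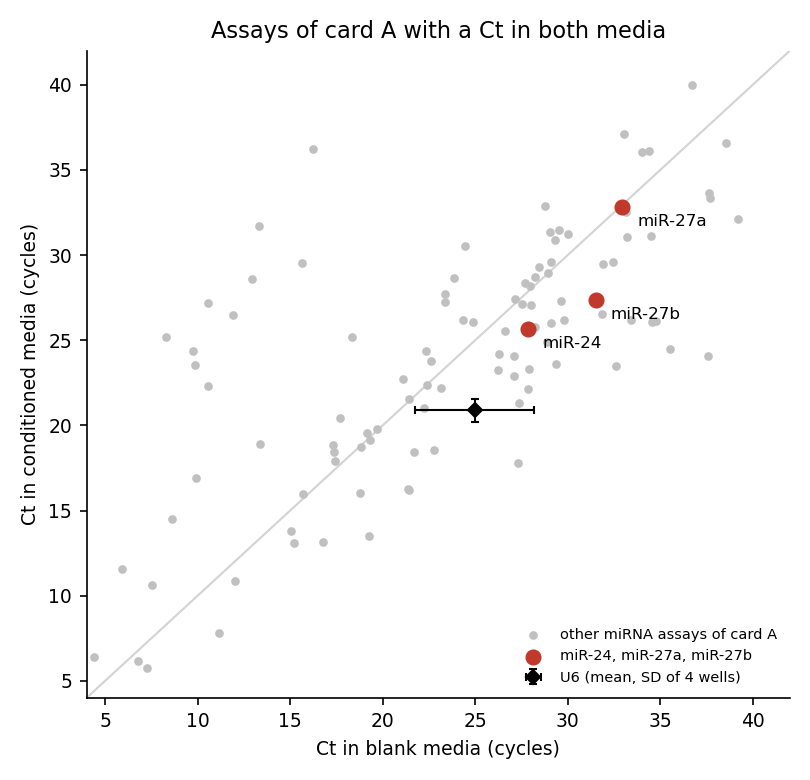
Ct in conditioned media against Ct in blank media, in cycles, for the miRNA assays of card A with a Ct in both (grey points), with miR-24, miR-27a and miR-27b in red and the mean and SD of the 4 U6 wells as a black diamond. Points under the diagonal were earlier in conditioned media; miR-27a lay on the diagonal, and miR-24 and miR-27b lay 2.22 and 4.15 cycles under it.

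The direction of the differences depended on the reference. Across the 94 sequences of card A detected in both media, the median difference was -0.12 cycles, with 49 earlier and 45 later in conditioned media, and quartiles at -3.04 and 1.96 cycles. Of the members, only miR-27b was earlier by more than the lower quartile. The U6 wells of card A were themselves earlier with embryos, by 4.08 cycles between the means. Relative to the mean of U6, the difference was -0.071 cycles for miR-27b, 1.86 for miR-24 and 3.95 for miR-27a. Only that of miR-27a exceeded the SD of the U6 difference with all wells, 3.29 cycles. Without the outlying well of each sample, the differences were 1.19, 3.12 and 5.21 cycles in the same order, each above the SD of 0.50 cycles. That SD is low by construction, and leaving out these wells also moved U6 to 5.34 cycles earlier with embryos. Relative to the median of U6, the differences were 0.94 for miR-27b, 2.88 for miR-24 and 4.97 cycles for miR-27a. These positive values mean that all 3 were earlier with embryos by less than U6 was, and not that their own Ct was later. The order of the members by difference, miR-27b lowest and miR-27a highest, is the same under any reference, since 1 value is subtracted from all.

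**Figure D3:**
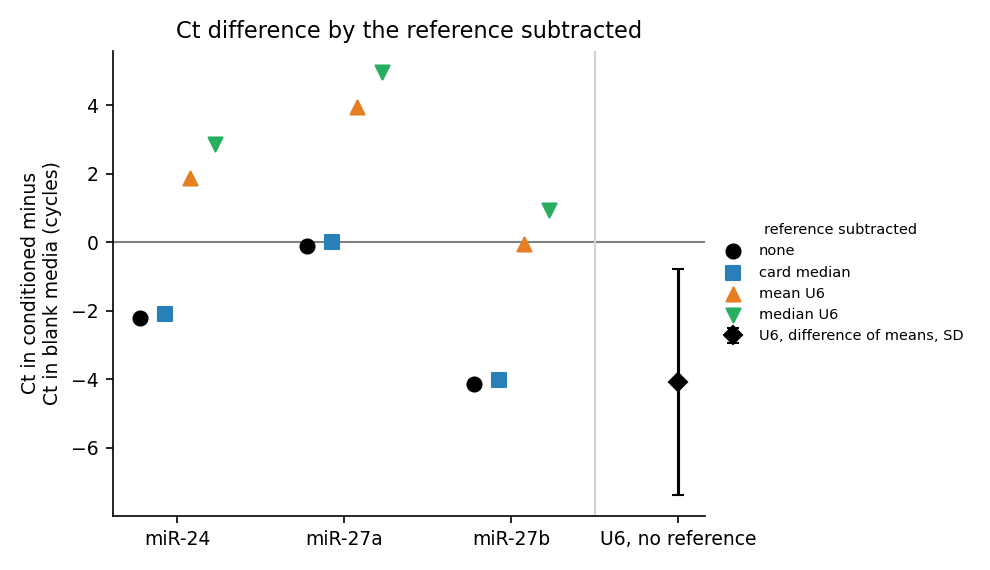
Ct in conditioned media minus Ct in blank media, in cycles, for miR-24, miR-27a and miR-27b with no reference, the median of card A, or the mean or median of U6 subtracted, beside the difference of the U6 means (bar, SD of the difference, n = 4 wells per sample). Values under 0 are earlier in conditioned media, relative to the reference where a reference is subtracted. The value of miR-24 moved from -2.22 to 1.86 when the mean of U6 was subtracted.

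Taken by cluster and before any reference was subtracted, the sequences encoded together did not share a pattern. From the chromosome 8 cluster, miR-27a had nearly equal Ct values in both media and miR-23a had none. From the chromosome 13 cluster, miR-27b was earlier in conditioned media by 4.15 cycles and miR-23b had a Ct in blank media only. Relative to the mean of U6, it was miR-27b that had a difference near 0, at -0.071 cycles, since U6 was itself earlier with embryos. That of miR-27a was 3.95. With the median of U6 or without its outlying wells, the difference relative to U6 was 0.94 or 1.19 cycles for miR-27b. For miR-27a it was 4.97 or 5.21. The signal of miR-24 could come from either cluster. In both clusters, then, the miR-23 assay had no Ct in conditioned media where the miR-27 assay had one.

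Minor arms, the strands of the duplex that accumulate less and that the array marks with #, had 5 assays, all on card B. The assays of miR-24-2#, miR-27a#, miR-27b# and rno-miR-24-1# (named for rat) were undetermined in both media. The assay of miR-23a# gave 27.4 in the blank well, and its well of conditioned media was undetermined. Like miR-23b, the major arm from the other cluster, this arm was detected in blank media only, as were 5.6% of all 750 miRNA assays. An assay named miR-189, a name that RefSeq lists as a synonym of Mir24-1 and that was looked up after its values were seen, gave 25.4 with embryos and 25.2 without. The synonym names the gene and not the arm. The assay of rno-miR-24-1#, by its name one of the same minor arm, had no Ct in either sample. Which arm the miR-189 assay reads was not tested. The sequence of the 5p arm of Mir24-1, which by the history of the name is the likely target of this assay, is printed below after that of miR-23a#, with the seed in capitals, to set them beside the major arms.
miR-23a#: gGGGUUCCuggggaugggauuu
miR-24-1-5p: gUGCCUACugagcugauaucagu
Arm miR-23a-5p lies at chr8:84208527-84208548 and miR-24-1-5p at chr13:63301213-63301235, on the plus strand of GRCm38.p6.

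Among the other mature sequences of RefSeq, only miR-128-3p combined the seed of miR-27 with an assay on the cards, where it is named miR-128a. It holds those 7 bases from position 1 and not from position 2, shown here in capitals.
miR-128a: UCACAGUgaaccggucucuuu
This sequence, best known from brain, is encoded at chr1:128202404-128202424 on the plus strand and at chr9:112118644-112118664 on the minus strand. Its assay gave 31.1 in the blank well and no Ct with embryos, so that miR-128a was in blank media only, as were miR-23b and miR-23a#. Of all 750 miRNA assays, 5.6% were in blank media only, and the other minor arms and miR-189 were not. No assay on the cards carried the number of any of the RefSeq sequences that share the seed of miR-24.

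The assays most like each member, by the distance between their pairs of Ct values on card A with an undetermined Ct set to 40, were the following. For miR-24 they were miR-192 (Ct of 25.7 with embryos, 27.9 without), miR-30b (25.8 and 28.2) and miR-30c (25.5 and 26.6). For miR-27b they were miR-197, miR-106b and miR-429, between 0.87 and 2.06 cycles away. For miR-27a they were miR-181a, miR-434-3p and miR-135a, between 0.34 and 2.29 cycles away. For miR-23b they were miR-202, miR-142-5p and miR-128a, all undetermined in conditioned media and between 0.19 and 0.81 cycles away. With 2 wells per assay, this likeness is a description of position only.

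Other groups of miRNAs differed in how many assays were detected in blank media. The miR-30 family, a widely expressed seed family, was detected in both media for 5 of 5 major arms, against 23.5% of all 750 assays, with differences from -2.86 to 0.22 cycles and a median of -1.09. The cluster from miR-17 to miR-92a, which encodes growth-associated miRNAs in 1 transcript, was detected in both media for 3 of 6 assays, and 2 others, miR-19a and miR-19b, were detected in conditioned media only, as were 13.9% of all assays. For the miR-23/27/24 clusters the median difference of the 3 members detected in both media was -2.22 cycles, with a range from -4.15 to -0.13, and for the 3 of the cluster from miR-17 to miR-92a it was -2.10, with a range from -5.73 to -0.16. With 1 sample per condition, none of these lists was tested against another. As a check of the labels, the mouse assays of miR-290 to miR-295 not marked with # were counted. These sequences mark pluripotent cells of the mouse embryo. They were detected in conditioned media only for 10 of 14 assays, against 13.9% of all assays. In blank media 0 of 14 were detected, against 29.1% of all assays, although miR-294 had a Ct of 37.6 there.

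Blood cell miRNAs, listed as markers of other cells whose RNA could be in the media, were detected in conditioned media for 5 of 8 assays, against 37.3% of all 750, and in blank media for 6 of 8, against 29.1%. The assays of miR-451 and miR-144 were undetermined in both. The assay of miR-142-3p gave 28.2 in the blank and 28.7 with embryos, and that of miR-142-5p gave 32.4 in the blank and no Ct with embryos. The lowest Ct of the list in blank media was 23.3, for miR-486, against 27.7 with embryos. The lymphoid miR-150 gave 27.2 in the blank and 27.4 with embryos. One assay of the myeloid miR-223 gave 29.5 in the blank and 31.4 with embryos, and the other, on card B, had 31.7 and 27.4. The part of such RNA in the signals of miR-24, miR-27a, miR-27b and miR-23b was not tested.

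**Figure D4:**
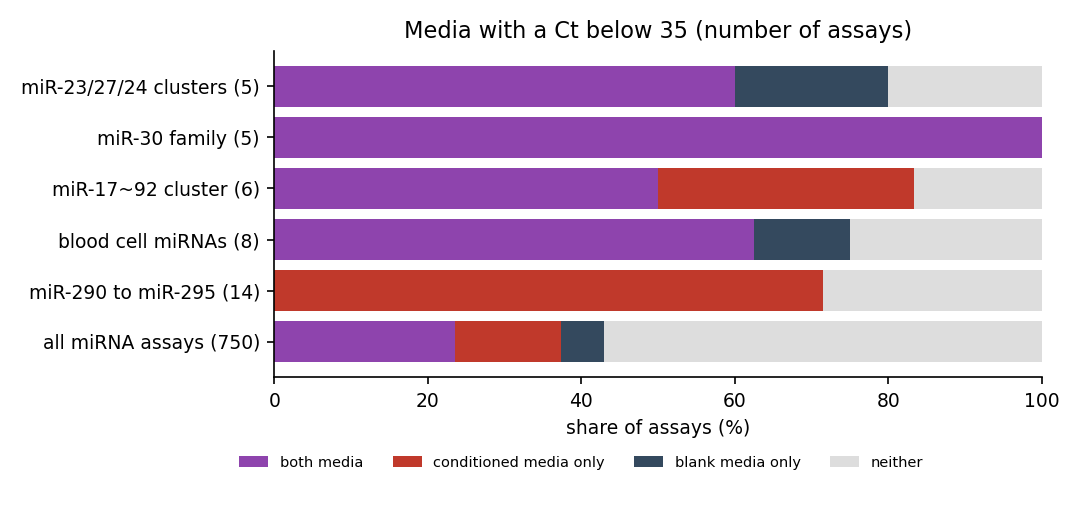
Share of the assays of each list, in percent, with a Ct below 35 in both media, in conditioned media only, in blank media only or in neither, with the number of assays in brackets. The 5 assays of the miR-23/27/24 clusters had no share in conditioned media only, against 10 of 14 for miR-290 to miR-295 and 13.9% of all 750 miRNA assays.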

How the data were processed

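TaqMan rodent miRNA cards A and B were run 1 time for media conditioned by 25 embryos and 1 time for a blank microdroplet. The authors read the cards with the QuantStudio software (version 1.3) and deposited a Ct for each well, not normalized, where wells that did not pass the threshold are written as undetermined. How the threshold and baseline were set is not given in the sources used here. A deposited table of fold changes holds the authors' own comparison and was not used. The methods also filter on the fluorescence change ΔRn, which was not analysed here, so that the Ct limit of 35 was applied alone. Pre-amplification for 12 cycles moves every Ct earlier and adds an error of its own, which these wells do not resolve. The number of arrays limits the precision.

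Of 768 wells, 18 were controls and 750 were miRNA assays. Members were chosen by name, and the text names every member, every minor arm of the same hairpins, assays holding a member's seed at bases starting at position 1, 2 or 3, the control assays, and the 3 assays of card A closest to each member. The members and lists were chosen with earlier results of these data known. The list of the cluster from miR-17 to miR-92a was written with miR-92a, which the array names miR-92. Differences are Ct in conditioned media minus Ct in blank media, and no test was run, since there was 1 sample per condition. Counting of the detection classes was tested on simulated data for 750 assays, where 6 of 6 checks passed. Alternatives were Ct limits of 32 and 38 or any Ct, added minor arms or rat-named assays, centring on the card median, U6 as reference, and undetermined wells set to 40. A U6 mean without its outlying wells and a background of card A alone were chosen after seeing the data. Sequences and gene positions came from RefSeq on GRCm38.p6; the deposited Ct table names no genome build. Python 3.11.15, pandas 2.3.3, numpy 2.4.6 and matplotlib 3.10.9 were used.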

Additional observations from a re-analysis of the deposited data

Results flagged for a closer look

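On card A, 1 of the 4 U6 wells stood apart from the other 3 in each sample, at 19.9 with embryos and 20.2 in the blank, where the gap to the nearest well was 0.88 and 0.87 of the whole range. The critical ratio of Dixon for 4 wells is passed by chance in about 1 of 20 such groups. Leaving out the farthest well of each sample moved the U6 difference from 4.08 to 5.34 cycles earlier with embryos.

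Signal in conditioned media without a Ct in blank media was also present among control assays, which are outside the comparisons made above. The small nucleolar RNA snoRNA135 had a Ct of 33.0 on card A and 29.3 on card B, and snoRNA202 had 28.5 and 29.8. U87 had a Ct of 32.7 on card A and was undetermined on card B, and the cytoplasmic RNA Y1 gave 15.5 on card B and nothing on card A. All of these wells were undetermined in blank media. The remaining control assay, ath-miR159a, was undetermined in both media on both cards.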

How the results depend on the processing

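Of the 42 alternatives run, 8 turned the sign of a difference, 3 moved a Ct by more than the SD of U6 or doubled a count, and 31 made smaller changes or none. The 31 include alternatives that could not change a value. These added rat-named assays, of which there were 0, or set undetermined wells to 40 for members with a Ct in both media. Centred on the median of the assays of card A with any Ct in both media, miR-24 and miR-27b stayed at -2.09 and -4.02 cycles, and miR-27a went to 0 by construction, since its own difference of -0.13 was that median. Against U6, the difference of miR-24 turned to 1.86 with the mean, 2.88 with the median and 3.12 cycles without the farthest well of each sample. That of miR-27a turned to 3.95, 4.97 and 5.21 cycles. That of miR-27b moved to -0.071 with the mean, and turned to 0.94 with the median and 1.19 without the farthest wells. These shifts follow from the construction, since U6 was earlier in conditioned media. With undetermined wells set to 40, the median Ct of the members in conditioned media moved from 27.4 to 32.8. Adding the minor arms raised the count detected in blank media only from 1 to 2. At a Ct limit of 32, miR-27a was no longer detected in either sample, which left 2 members in conditioned media and 3 in blank media. No member was exclusive to conditioned media at Ct limits of 32, 35 or 38, or with any determined Ct. Nor was any with the minor arms added, or with rat-named major arms, of which there were 0. Limits between the 2 Ct values of miR-24 or of miR-27b, under which that sequence would be exclusive, were not run. For miR-23a and miR-23b no difference could be formed in the main analysis. No paired analysis was possible because each condition had 1 sample. Ct values near the limit rest on little template, and 1 well per assay sets how firmly any value can be read.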
